A study of Mus musculus with 4 samples.

Results

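The most contractile fibroblasts of these colon tumours were 80 wells out of the 1536 wells of 4 plates, each well meant to hold 1 sorted cell. Each plate came from 1 tumour and held cells labelled as sorted cancer-associated fibroblasts (CAFs, the connective tissue cells of a tumour). The tumours were of the APTKA line, were grown in the colon of female mice of the strain C57BL6J and had received no treatment, which all 4 share, and they are numbered 1 to 4 here. The series has no other genotype, treatment or time. The letters APTKA, the age of the mice, the gate of the sort and the number of mice behind a plate are not explained in the sources used here.

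Members were chosen by their own transcripts. Wells entered with 1000 or more transcripts, spike-ins not counted, at most 30% mitochondrial transcripts and at least 30 transcripts of the fibroblast genes Dcn and Col1a1 per 10000. Mural cells, the smooth muscle cells and pericytes of muscle layers and vessels, were left out by requiring under 5 per 10000 of Myh11 and of Rgs5 plus Notch3. Wells with 5 or more per 10000 of the matrix metalloproteinases Mmp13 plus Mmp10 were left out too. This left 27, 198, 157 and 147 wells in tumours 1 to 4. The kept wells of a plate were ranked by the sum of Acta2, Tagln, Myl9 and Tpm2 per 10000, called the contractile sum here, and the top 15% were the members: 4, 30, 24 and 22 wells. The lower 50% of the same plate, 14, 99, 78 and 74 wells, served as the comparison and are called the lower wells. The last well inside the top 15% had a contractile sum of 19.7, 21.9, 11.0 and 20.8 in tumours 1 to 4, and the first well outside had 18.98, 21.5, 10.4 and 20.7, so no gap separated the members from the next wells.

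Contractile fibroblasts, often called myofibroblasts, carry bundles of smooth muscle actin and non-muscle myosin that are anchored to the matrix through focal adhesions. Many of their contractile genes are controlled by serum response factor (SRF) and its actin-sensing partners, the myocardin-related factors, and transforming growth factor beta (TGF-beta) is a known inducer of the state. In the gut wall, smooth muscle cells, pericytes, interstitial cells of Cajal (the pacemakers of the muscle) and subepithelial telocytes carry some of these genes as well, so their markers are given beside the results.

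The ranking genes encode smooth muscle alpha actin (Acta2), the actin-binding protein transgelin (Tagln), a regulatory myosin light chain (Myl9) and beta tropomyosin (Tpm2). On the GRCm38 assembly, called mm10 in the submitters' processing notes, the annotated gene bodies lie on chromosome 19 at 34241090 to 34255590 (Acta2), chromosome 9 at 45929619 to 45936058 (Tagln), chromosome 2 at 156775420 to 156781658 (Myl9) and chromosome 4 at 43514711 to 43523765 (Tpm2). RefSeq promoter stretches (GRCm38.p6) were matched for Acta2, Myl9 and Tpm2 but not for Tagln. The 250 bases before the RefSeq start are shown because SRF binds a motif called the CArG box, CCNNNNNNGG with A or T inside. Boxes in which at most 1 of the 6 inner bases was another base stand in capitals. The stretches are chr19:34255374-34255623 on the minus strand, chr2:156775214-156775463 on the plus strand and chr4:43523555-43523804 on the minus strand. The gene bodies above are those of GENCODE, whose starts differ from the RefSeq starts. Most of the Acta2 and Tpm2 stretches and the end of the Myl9 stretch lie inside those gene bodies, and so do the Acta2 boxes.
Acta2: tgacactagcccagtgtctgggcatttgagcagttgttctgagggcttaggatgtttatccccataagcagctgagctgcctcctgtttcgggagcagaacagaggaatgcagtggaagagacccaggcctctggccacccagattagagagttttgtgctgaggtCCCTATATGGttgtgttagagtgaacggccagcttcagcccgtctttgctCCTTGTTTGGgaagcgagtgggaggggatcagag
Myl9: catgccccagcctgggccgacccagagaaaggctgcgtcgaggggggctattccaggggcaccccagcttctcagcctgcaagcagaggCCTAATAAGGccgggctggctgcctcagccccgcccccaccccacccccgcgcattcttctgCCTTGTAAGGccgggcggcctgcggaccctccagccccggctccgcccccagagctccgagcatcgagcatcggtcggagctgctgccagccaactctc
Tpm2: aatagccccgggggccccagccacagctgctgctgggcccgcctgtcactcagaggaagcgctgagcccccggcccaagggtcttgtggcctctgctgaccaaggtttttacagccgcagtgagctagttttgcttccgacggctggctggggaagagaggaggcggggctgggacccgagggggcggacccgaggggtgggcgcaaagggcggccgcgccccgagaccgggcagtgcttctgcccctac
The Acta2 stretch held 2 such boxes, whose first bases lay 84 and 34 bases before the start, and the Myl9 stretch held 2, at 161 and 99 bases. No box was found in these letters of the Tpm2 stretch. Of 32851 stretches of the same length in the table, 8.59% held a box under this definition and 1.47% held one with only A or T inside, as the Myl9 box at 161 bases has. A match describes the letters and is not a measured binding site.

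The plates held 612734, 3165550, 2805112 and 2727191 transcripts. Tumour 1 stood apart: spike-ins made up 44.0% of its counts against 5.54 to 8.59% in the others, and 87 of its 130 wells with 1000 transcripts were over the mitochondrial limit. With 4 members, tumour 1 was left out of the tests, which need 10 member wells in a tumour, and its values are given beside them. Of the 61656 transcripts of those 4 members, 87.3% came from 1 well, so each member level of tumour 1 is mostly that of 1 well. The plates use the same well names, so a shared name does not mean a shared cell. Member wells held fewer transcripts than lower wells by the median, with 2751 against 8242 in tumour 1, 7436 against 10542 in tumour 2, 6362 against 11763 in tumour 3 and 11452 against 11541 in tumour 4. With every well thinned to at most 5000 transcripts, 131 genes were higher and 182 lower in the members, of which 97 and 146 were among the 183 and 290 called without thinning.

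The levels of the ranking genes chose the wells, so they are described without a test. All levels are summed transcripts of a gene per 10000 summed transcripts of the class in a tumour. Acta2 stood at 55.4, 29.9, 23.3 and 27.6 per 10000 in the members of tumours 1 to 4 and at 3.10, 3.40, 1.05 and 0.871 in the lower wells. Tagln stood at 0.811, 11.3, 4.17 and 5.13 in the members and at 0, 0.239, 0.0936 and 0.0352 in the lower wells. Acta2 made up most of the contractile sum, most clearly in tumour 1. Myl9 was at 2.11, 2.69, 4.25 and 3.22 in the members and at 0.335, 0.217, 0.215 and 0.150 in the lower wells. Tpm2 was at 1.95, 3.31, 3.28 and 4.65 in the members and at 0.503, 0.306, 0.449 and 0.255 in the lower wells. Members stood above the lower wells in each tumour for these genes, which the ranking favours.

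Single members differed in which of the 4 genes they carried. In tumour 2, Acta2 ran from 6.24 to 84.3 per 10000 with a median of 27.6 over 30 wells, while Myl9 was at 0 in 11 wells and Tpm2 in 8. In tumour 3, 1 of 24 members had no Acta2, 8 had no Tagln, 5 had no Myl9 and 8 had no Tpm2. In tumour 4, the zeros among 22 members were 3 for Tagln, 5 for Myl9 and 2 for Tpm2. At this depth a gene at 2 per 10000 gives only a few counts, so these zeros do not show absence.

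**Figure D1:**
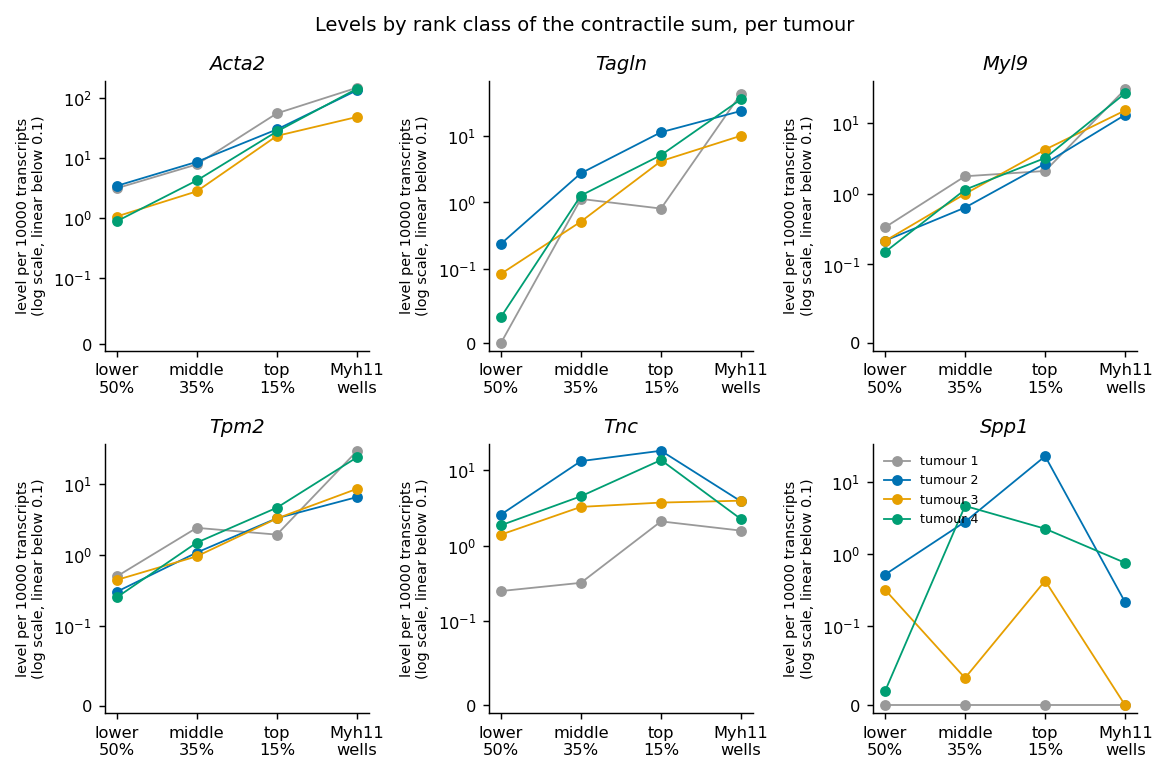
Levels per 10000 transcripts of the 4 ranking genes, Tnc and Spp1 in the lower 50%, the middle and the top 15% of the kept wells and in the wells left out for Myh11, with 1 line per tumour and a log axis that is linear near 0. Acta2 in the top 15% was 55.4, 29.9, 23.3 and 27.6 in tumours 1 to 4, and the wells left out for Myh11 lay above the top 15% in each tumour for the 4 ranking genes.

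Markers of other cell types were read in the members. The 12 fibroblast markers summed to 659, 554, 537 and 537 per 10000 in the members of tumours 1 to 4 and to 392, 633, 588 and 629 in the lower wells. Dcn and Col1a1, which the limit used, are among them, and the other 10 summed to 472, 367, 363 and 340 in the members and to 223, 407, 349 and 378 in the lower wells. Of 10 tested fibroblast markers 1 was higher in the members (Pdgfrb) and 3 were lower (Lum, Pdpn and Fap). The 12 smooth muscle markers summed to 3.40 to 5.84 in the members and to 1.66 to 3.18 in the lower wells, against 29.7 to 136 in the wells left out for Myh11. Myh11 is among the 12 and alone stood at 59.8, 12.3, 14.3 and 68.6 in the wells left out, so the limit sets part of that distance. Of 6 tested smooth muscle markers, Actg2, Smtn and Kcnmb1 were higher in the members. Cnn1, a defining smooth muscle gene, was at 0.324, 0.0767, 0.0771 and 0.0632 in the members of tumours 1 to 4. In the lower wells it was at 0.251, 0.0224, 0.0468 and 0, below the members of each tumour. Levels this low rest on few counts. Des, also on the smooth muscle list, was at 0, 0.480, 0.116 and 0.981 in the members. In the lower wells Des was at 0, 0.351, 0.553 and 0.405, above the members in tumour 3. The 12 pericyte markers summed to 1.95 to 5.55 in the members against 3.27 to 4.61 in the lower wells and 41.8 to 70.8 in the wells left out for Rgs5 plus Notch3. Rgs5 and Notch3 are in that list, so the limit sets the distance to the wells left out, and of 5 tested pericyte markers Cspg4 was higher in the members and Steap4 lower. Endothelial markers summed to at most 0.424, immune markers to at most 0.126 and epithelial markers to at most 0.153 in the members of any tumour, with Cldn5, Ptprc and Epcam at 0 in tumours 2 to 4. Red cell transcripts summed to 3.41, 1.71, 22.8 and 33.3 in the members and to 5.28, 18.98, 10.8 and 11.0 in the lower wells, with neither of the 2 tested genes called.

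Each pair of ranking genes was tested in wells that the other pair had chosen. Wells ranked on Acta2 plus Tagln alone, 72 of whose top 80 were members, held more Myl9 and Tpm2. Myl9 was at 2.11, 2.55, 3.55 and 3.14 per 10000 in the top 15% of tumours 1 to 4 and at 0.582, 0.272, 0.551 and 0.259 in the lower 50%. Its log2 fold change over tumours 2 to 4 was 3.01 ± 0.25 (SE, n = 3 tumours, edgeR adjusted p = 0.00034). Tpm2 was at 1.79, 3.23, 3.09 and 4.49 in the top 15% and at 0.998, 0.368, 0.587 and 0.473 in the lower 50%, a log2 fold change of 2.79 ± 0.24 (SE, n = 3, edgeR adjusted p = 0.00034). In that ranking 2.43% of the 7656 genes tested were higher.

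Wells ranked on Myl9 plus Tpm2, 56 of whose top 80 were members, held more Acta2 and Tagln. Acta2 was at 9.12, 29.5, 21.7 and 24.4 per 10000 against 4.78, 4.96, 1.83 and 1.19, a log2 fold change of 3.32 ± 0.31 (SE, n = 3, edgeR adjusted p = 0.000355). Tagln was at 2.02, 9.28, 3.79 and 4.64 against 0, 0.637, 0.239 and 0.0644, a log2 fold change of 4.26 ± 0.37 (SE, n = 3, edgeR adjusted p = 0.000344), and 1.87% of the 7228 genes tested were higher. Between top and lower wells the 4 genes thus went together in wells chosen without them, in each of the 4 tumours. The ratios of Myl9, Tpm2 and Acta2 were narrowest in tumour 1. Among the members alone, which their sum had chosen, Spearman correlations between pairs of the 4 genes ran from -0.14 to 0.51 in tumours 2 to 4. These correlations are a description with no test.

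**Figure D2:**
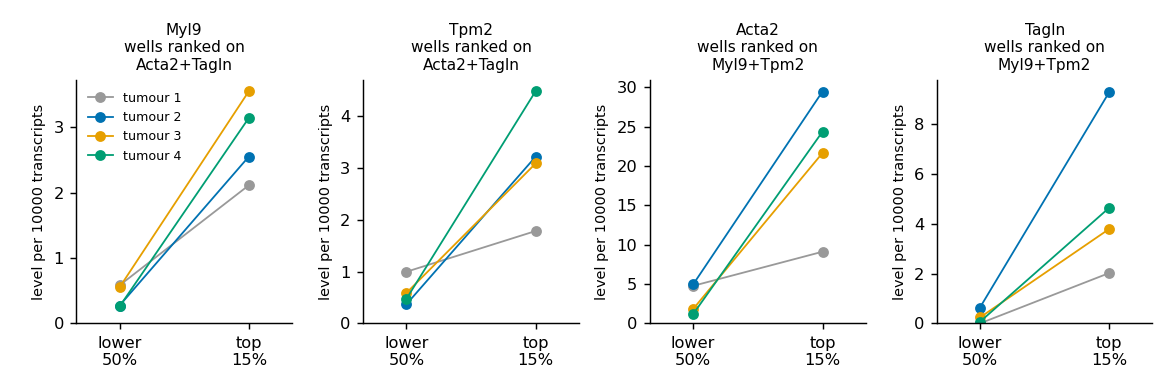
Levels per 10000 transcripts of each ranking gene in the lower 50% and top 15% of wells ranked on the other pair, with 1 line per tumour. In each tumour the level is higher in the top 15%, for instance Acta2 from 1.19 to 24.4 in tumour 4.

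The remaining genes were compared between members and lower wells on counts summed per tumour and class, with the tumour as a block. Of 7573 genes tested, 183 were higher in the members (2.42%) and 290 were lower (3.83%) at an edgeR adjusted p under 0.05, and the median log2 fold change was 0.01. With totals in place of TMM scaling the median was 0.15 and the split became 275 higher and 245 lower, so the share of calls that were higher went from 38.7% to 52.9%. In tumour 1, which the fit did not use, 121 of the 183 higher genes had the same sign and so had 216 of the 290 lower ones, where 45.6% and 50.4% of all tested genes did, and 1 well gives most of that tumour's member counts. Nothing in the sources says that the plates came from separate mice, so the p-values measure the spread between these 3 plates. Fold changes below are on the log2 scale with their standard error over tumours 2 to 4, and p is edgeR's adjusted p.

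Other genes of the contractile machinery were higher in the members than in the lower wells. Of 30 listed genes of the thin filament and its myosin motor, 25 were tested, 11 were higher and none was lower, with a list median of 0.69 on the log2 scale against 0.01 for all tested genes. The 11 were Actg2, Cnn2, Mylk, Tpm1, Myh9, Cald1, Myh10, Smtn, Tpm4, Myl12a and Actb. Tropomyosin 1 (Tpm1), a partner of Tpm2 on the filament, was at 8.49, 9.10, 11.1 and 11.8 per 10000 in the members of tumours 1 to 4 and at 2.60, 2.23, 2.77 and 2.58 in the lower wells. The groups did not overlap, with each member level above each lower level, as in 4.82% of all tested genes, and the log2 fold change was 1.93 ± 0.18 (SE, n = 3, adjusted p = 0.000589).

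Caldesmon (Cald1), an actin-binding brake on myosin, was at 8.65, 8.23, 10.1 and 10.8 against 5.28, 2.48, 3.08 and 3.16 (1.59 ± 0.18, adjusted p = 0.00126). Calponin 2 (Cnn2), another actin-binding protein, was at 10.9, 5.75, 4.87 and 9.03 against 1.01, 1.24, 1.58 and 1.09 (2.15 ± 0.27, adjusted p = 0.00193). Myosin light chain kinase (Mylk), which switches the motor on, was at 4.88, 1.90, 2.78 and 2.43 against 1.09, 0.672, 0.430 and 0.475 (2.01 ± 0.28, adjusted p = 0.00319). These 3 genes stood higher in the members of each tumour, in tumour 1 mostly through 1 well. The non-muscle myosin heavy chain Myh9 rose by 1.61 ± 0.19 and its relative Myh10 by 1.17 ± 0.22. The most abundant gene of the list, beta actin (Actb), was at 39.9, 54.4, 41.7 and 50.9 against 20.7, 26.1, 28.8 and 27.1 and rose by 0.70 ± 0.15, a call that was lost without tumour 2 and without tumour 4, while that of Myh10 was lost without tumour 4.

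Enteric smooth muscle gamma actin (Actg2) had the widest change of that list. It was at 0.487, 0.980, 1.47 and 0.917 per 10000 in the members and at 0.0838, 0.0821, 0.0655 and 0.00880 in the lower wells (4.23 ± 0.42, adjusted p = 0.000704), under the 31.8, 14.7, 5.12 and 17.7 of the wells left out for Myh11. In tumours 2 to 4 it was found in 20 of 76 members and 16 of 251 lower wells. With wells at 5 or more per 10000 of the smooth muscle markers other than Myh11 left out, 6 thin filament genes and 8 adhesion genes were higher. None was lower, and the list medians were 0.63 and 0.62. That limit uses Actg2, Cnn1, Smtn, Lmod1 and Synpo2, which are in these lists, so it sets part of these counts. The thin filament count was 6 without tumour 4, 8 without tumour 2, 12 without tumour 3 and 6 with DESeq2.

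Several genes of proteins that cross-link actin and tie it to the matrix were higher. Of 44 listed genes, 42 were tested, 17 were higher and 1 was lower, with a list median of 0.62. Alpha-actinin 1 (Actn1), which bundles actin, was at 6.35, 6.91, 5.02 and 7.80 per 10000 in the members and at 1.26, 1.73, 1.55 and 1.29 in the lower wells (1.95 ± 0.22, adjusted p = 0.00128). Csrp1, a LIM protein of smooth muscle, was at 11.4, 8.05, 8.74 and 11.1 against 4.53, 1.54, 3.29 and 2.03 (1.95 ± 0.23, adjusted p = 0.00167). Filamin A (Flna), which links actin into networks, was at 12.6, 9.42, 8.85 and 8.58 against 5.20, 2.84, 3.61 and 3.48 (1.30 ± 0.19, adjusted p = 0.00359). For each of the 3, the member levels of the 4 tumours lay above all lower levels, as in 4.82% of all tested genes.

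Fhl2, Fblim1 and Pdlim3, LIM proteins of the cytoskeleton, rose by 2.15 ± 0.23, 1.71 ± 0.25 and 2.49 ± 0.35, and vinculin (Vcl), a core adhesion protein, by 1.48 ± 0.20. The integrin chains Itga1, which binds collagen, and Itgb3 rose by 2.26 ± 0.37 and 1.50 ± 0.30, and the actin-binding Nexn by 2.38 ± 0.51. Pdlim3 was lower in the members of tumour 1, at 0, 0.307, 1.43 and 1.74 against 0.503, 0.0822, 0.309 and 0.150 in tumours 1 to 4. The calls of Itga1, Itgb3 and Nexn were each lost when tumour 2 was left out, and the latter pair also when tumour 3 (Itgb3) or tumour 4 (Nexn) was. The gene that fell was Pxn, the adhesion scaffold paxillin, with -0.93 ± 0.22 (adjusted p = 0.0349), a call that was lost when any of the 3 tumours was left out. The count of higher adhesion genes was 9 without tumour 4, 13 without either other tumour and 10 with DESeq2.

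Of the 28 genes called higher in these actin lists, promoter stretches were matched for 22. A CArG box with at most 1 other inner base was found for 5 of the 22 (Cnn2, Fhl2, Myl12a, Pdlim3 and Vcl), against 2643 of all 27025 genes with a stretch. The motif CATTCC, which TEAD factors bind, was searched on both strands. It was found for 12 of the 22, against 3880 of the 27025 genes. The 22 genes had 30 stretches, and a gene with more stretches has more chances of a match. These shares were not tested. No CATTCC overlapped a CArG box in these stretches.

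No tested regulator of the program was called in the main comparison. Of 14 listed SRF, myocardin and partner genes, 11 were tested and none was called, with a median of 0.18. In alternatives, 1 was higher with totals in place of TMM, 1 without tumour 3 and 1 with no filter on low counts. Srf was at 1.46, 0.787, 0.579 and 0.885 per 10000 in the members and at 0.251, 0.411, 0.749 and 0.563 in the lower wells, with 0.31 ± 0.27 (adjusted p = 0.621). The myocardin-related genes Mkl1 and Mkl2 had 0.05 ± 0.30 and -0.32 ± 0.37 (adjusted p = 0.959 and 0.72). Myocd was too sparse to test, with 6 raw counts in 76 members against 2 in 251 lower wells. More counts thus came from the fewer member wells, a difference not tested in the main comparison. None of 11 tested targets of YAP, another tension-sensing factor, was called, and their median was -0.14 with TMM scaling and 0.00 with totals.

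**Figure D3:**
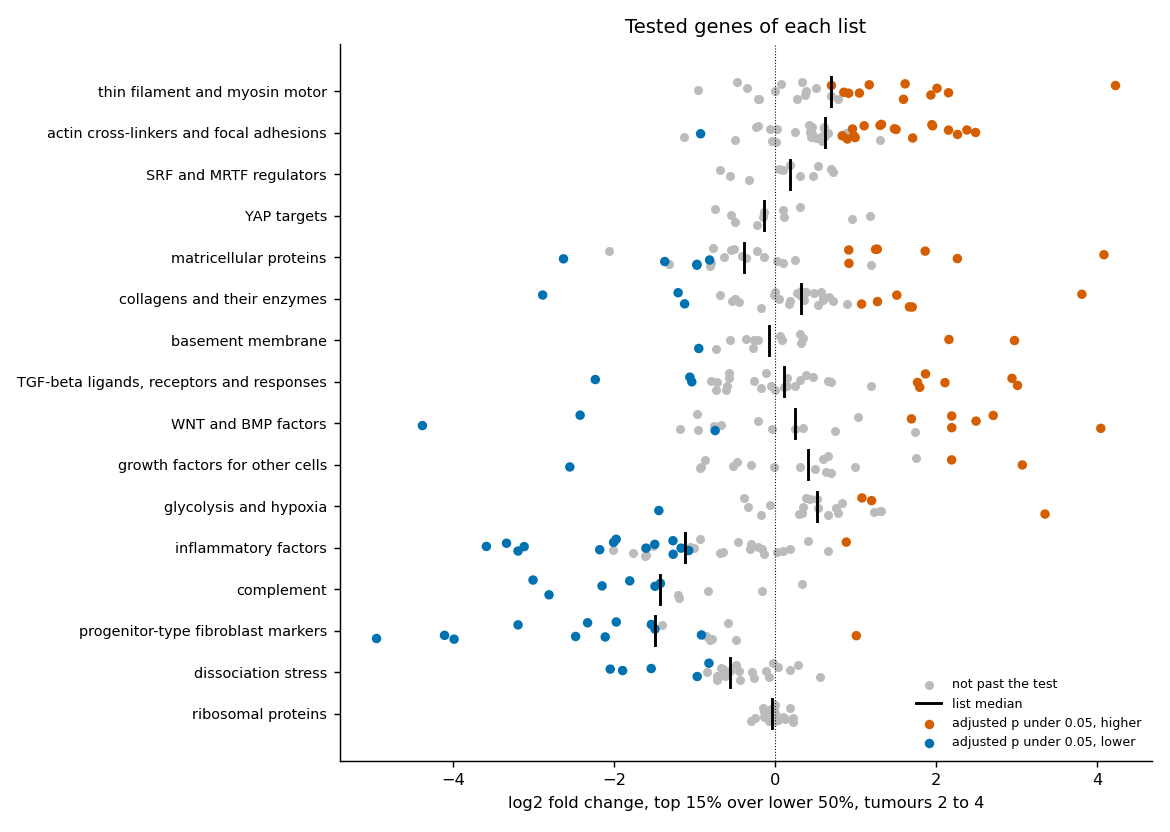
Log2 fold change of each tested gene, top 15% over lower 50% in tumours 2 to 4, by gene list, with grey points for genes that did not pass, coloured points for genes higher or lower at an edgeR adjusted p under 0.05 and a bar at each list's median. The actin lists have medians of 0.69 and 0.62, and the complement and progenitor lists have medians of -1.43 and -1.49.

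Tnc and Spp1 are secreted matrix proteins given as markers of these cells, and neither was used for the ranking. Tenascin C (Tnc), a matrix protein of wounds and tumours, was at 2.11, 18.2, 3.75 and 13.7 per 10000 in the members and at 0.251, 2.59, 1.41 and 1.87 in the lower wells, higher in each tumour (2.26 ± 0.28, adjusted p = 0.00188). It was found in 58 of 76 members and 105 of 251 lower wells of tumours 2 to 4. Osteopontin (Spp1) was at 0, 23.1, 0.424 and 2.25 against 0, 0.516, 0.319 and 0.0176, so almost all of it came from tumour 2. Its change was 4.08 ± 0.88 (adjusted p = 0.0241), 3 wells held 76.7% of its member counts, and the call was lost without tumour 2 and without tumour 4.

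Other matricellular proteins, which sit in the matrix and act on cells, moved both ways. Of 28 tested genes 7 were higher and 5 lower, with a median of -0.39. Wisp1, a secreted target of WNT signalling, was at 0.324, 3.46, 1.35 and 3.20 against 0.0838, 0.590, 0.599 and 0.722 (1.86 ± 0.26, adjusted p = 0.00338). Periostin (Postn) was at 14.8, 16.4, 28.5 and 29.5 against 13.6, 8.34, 7.83 and 11.4 (1.27 ± 0.22, adjusted p = 0.00882), higher in each tumour. Thbs1, Fn1 and Emilin1 rose by 1.25 ± 0.19, 0.92 ± 0.21 and 0.91 ± 0.20. The genes that fell were Tnxb, Fbln1, Mfap4, Ecm1 and Fstl1, with -2.63 ± 0.43, -1.37 ± 0.25, -0.97 ± 0.20, -0.97 ± 0.21 and -0.82 ± 0.16. Without tumour 4 the counts were 3 higher and 2 lower, with Postn, Thbs1, Emilin1, Mfap4, Ecm1 and Fstl1 among the lost calls. Fn1 was lost without tumour 2 or tumour 3, Mfap4 and Ecm1 also without tumour 2, and Emilin1 also without tumour 3.

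Collagens split by chain. Of 33 tested genes of collagens and their enzymes, 6 were higher and 3 lower, with a median of 0.32, and with totals 10 were higher and 3 lower. Col12a1, a chain on the surface of collagen fibrils, was at 2.60, 12.04, 4.56 and 6.21 per 10000 against 2.01, 2.37, 2.41 and 1.98 (1.51 ± 0.25, adjusted p = 0.008). Col7a1, the chain of anchoring fibrils, was at 0.811, 1.54, 1.35 and 0.411 against 0, 0.0597, 0.0935 and 0.0528 (3.81 ± 0.36, adjusted p = 0.000579), and 3 wells held 79.7% of its member counts. Col18a1, Loxl3, Col5a3 and Loxl2 rose by 1.70 ± 0.34, 1.67 ± 0.33, 1.27 ± 0.22 and 1.07 ± 0.20; Loxl2 and Loxl3 belong to the lysyl oxidases, which cross-link collagen. Col14a1, another fibril-surface chain, was at 0.649, 2.39, 0.193 and 0.759 against 2.68, 6.84, 5.54 and 6.16 and fell by 2.89 ± 0.43 (adjusted p = 0.00471). Adamts2 and Loxl1 fell, with log2 fold changes of -1.21 ± 0.21 and -1.13 ± 0.21. Among 14 basement membrane genes, Lama5 and Col4a5 were higher (2.97 ± 0.51 and 2.16 ± 0.46) and Lama2 was lower (-0.95 ± 0.22), and the list median was -0.08 with TMM and 0.06 with totals. Without tumour 4, 3 collagen list genes were higher and 1 was lower. The calls of Col5a3, Loxl1, Loxl2, Loxl3, Adamts2 and Col4a5 were lost there. Those of Loxl2 and Col4a5 were also lost without tumour 3, and that of Loxl3 without tumour 2. The Lama2 call was lost when any of the 3 tumours was left out.

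Of 31 tested genes of the TGF-beta list 6 were higher and 3 lower, with a median of 0.10, and the tested TGF-beta ligands were not called. The CAF surface protein Lrrc15, known to respond to TGF-beta, was at 0, 3.29, 0.695 and 2.44 per 10000 in the members and at 0, 0.553, 0.0561 and 0.167 in the lower wells (3.01 ± 0.31, adjusted p = 0.000871). The TGF-beta induced protein Tgfbi was at 4.23, 1.13, 5.29 and 2.88 against 2.85, 0.232, 0.487 and 0.273 (2.94 ± 0.29, adjusted p = 0.000659). Inhba, the subunit of activin A, was at 0.973, 3.60, 1.24 and 3.81 against 0, 0.538, 0.544 and 0.618 (2.11 ± 0.29, adjusted p = 0.00319). Except for Lrrc15 in tumour 1, these stood higher in the members of each tumour. Il11, Ltbp2 and Id1 rose by 1.87 ± 0.32, 1.79 ± 0.45 and 1.77 ± 0.37, and each of these 3 calls was lost without tumour 3. That of Ltbp2 was also lost without tumour 2, and that of Id1 without tumour 4.

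Of the ligands, Tgfb2 had 0.47 ± 0.44 and Tgfb3 0.66 ± 0.31 (adjusted p = 0.65 and 0.308). Tgfb1 was too sparse to test, with 34 counts in 76 members against 21 in 251 lower wells. These are raw counts from unlike numbers of wells, with more counts from the fewer member wells, so they do not show an unchanged level. This difference was not tested in the main comparison. With no filter on low counts, 8 genes of the TGF-beta list were higher and 3 lower. The type II receptor Tgfbr2 was at 2.60, 3.17, 4.32 and 4.55 against 6.12, 5.86, 7.25 and 9.50, lower in each tumour (-1.04 ± 0.19, adjusted p = 0.0119), a call lost without tumour 4. The co-receptor Tgfbr3 and the latent binding protein Ltbp4 fell, with log2 fold changes of -2.24 ± 0.27 and -1.06 ± 0.23, the Ltbp4 call being lost without tumour 2 or tumour 4, and the type I receptor Tgfbr1 had 0.30 ± 0.27 (adjusted p = 0.625).

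Of 21 tested WNT and BMP factors, 6 were higher and 3 lower. The ligands Bmp7, Bmp5, Wnt5a, Bmp2 and Wnt4 rose by 2.71 ± 0.30, 2.49 ± 0.33, 2.19 ± 0.29, 2.19 ± 0.34 and 1.69 ± 0.40. Bmp7 was at 1.79, 0.365, 2.66 and 1.23 per 10000 against 1.09, 0.0896, 0.318 and 0.141, and Wnt5a at 1.14, 0.959, 3.32 and 2.44 against 0.586, 0.336, 0.561 and 0.334, both higher in each tumour. Wif1, a secreted WNT inhibitor, was at 0.162, 0.326, 0.309 and 2.32 against 0.419, 0.0448, 0.0281 and 0.0528 (4.04 ± 0.51, adjusted p = 0.00227), with its highest level in the members of tumour 4 and a lower level in the members of tumour 1. Sfrp4, which binds WNT proteins, was at 0, 0.460, 0.501 and 1.39 against 0.0838, 15.1, 9.36 and 16.2 and fell by 4.38 ± 0.31 (adjusted p = 0.000344), and its relatives Sfrp2 and Sfrp1 fell, with log2 fold changes of -2.42 ± 0.25 and -0.75 ± 0.18. The calls of Wnt4 and Sfrp1 were lost without tumour 3 and without tumour 4. Bmp5, Bmp7 and Wnt5a are also telocyte markers, and without the wells at 2 or more per 10000 of Foxl1, Bmp5, Bmp7 and Sox6 together, a limit that uses Bmp5 and Bmp7 themselves, 1 gene of this list was higher and 1 lower, and Bmp2 had a log2 fold change of -1.94. Among 18 tested growth factors, Hbegf and Nrg1, ligands of the EGF receptor family, were higher (3.07 ± 0.38 and 2.19 ± 0.41), and Figf, a vascular growth factor, was lower (-2.55 ± 0.47). The calls of Nrg1 and Figf were lost without tumour 3, and that of Nrg1 also without tumour 4.

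Most markers of progenitor-type fibroblasts, the cells of vessel sheaths and loose connective tissue, were lower in the members. Of 19 tested genes 11 were lower and 1 was higher, with a median of -1.49. Cd34 was at 1.30, 0.307, 0.733 and 0.537 per 10000 in the members and at 8.23, 4.87, 8.87 and 8.58 in the lower wells (-3.99 ± 0.24, adjusted p = 0.000139). Pi16 was at 0.487, 0.345, 0 and 0.0632 against 1.01, 4.49, 3.61 and 4.57 (-4.95 ± 0.48, adjusted p = 0.000659), and Clec3b at 0.324, 0.0959, 0.347 and 0.158 against 5.96, 2.80, 3.20 and 2.51 (-4.11 ± 0.34). These 3 stood lower in the members of each tumour. The actin-severing Gsn, the surface proteins Ly6c1 and Ly6a and the proteoglycan Lum fell, with log2 fold changes of -2.33 ± 0.18, -2.48 ± 0.43, -2.11 ± 0.20 and -1.98 ± 0.18.

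The exception was the PDGF receptor Pdgfrb, at 1.62, 1.82, 1.77 and 2.15 against 1.42, 0.612, 1.07 and 0.994, which rose by 1.01 ± 0.22 (adjusted p = 0.0254), a call lost without tumour 2 and without tumour 4. Its relative Pdgfra had -0.59 ± 0.27 (adjusted p = 0.283). Fap, a common CAF marker, was at 0, 0.153, 0.116 and 0.221 against 0.251, 0.418, 0.496 and 0.361 and fell by 1.49 ± 0.37 (adjusted p = 0.046), a call lost when any of the 3 tumours was left out. Most lower wells held progenitor transcripts: 208 of 251 had at least 2 per 10000 of Cd34, Pi16 and Clec3b together, against 14 of 76 members. So did 121 of 175 wells ranked between the 2 classes. At these depths a few counts reach that limit. With the lower wells past the limit taken out of the comparison class, 43 wells remained in it. Against these, 4 genes were higher and 16 lower, of which 4 and 11 were among the 183 and 290. No adhesion gene and 1 thin filament gene (Tpm1) was among them, while the list medians were 0.52 and 0.74. Emilin1 had a log2 fold change of -0.23 there, Id1 -0.13, Fstl1 0.13, Tgfbr2 0.21 and Cd34, which that limit used, 0.074, each opposite in sign to its value against all lower wells.

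A part of the inflammatory genes was lower. Of 36 tested genes 13 were lower and 1 was higher (Ptgs2, a prostaglandin enzyme, 0.88 ± 0.22, adjusted p = 0.0449, a call lost when any of the 3 tumours was left out), with a median of -1.12. Saa3, an acute phase gene, was at 3.90, 2.92, 0.386 and 0.253 per 10000 against 0, 9.01, 10.8 and 8.26, lower in tumours 2 to 4 and higher in tumour 1 (-3.59 ± 0.56, adjusted p = 0.00549). Cxcl12, a chemokine of most fibroblasts, was at 4.88, 4.67, 5.64 and 3.92 against 21.2, 8.76, 13.4 and 15.03, lower in each tumour (-1.50 ± 0.22, adjusted p = 0.00456). Il1r2, a decoy receptor for interleukin 1, the hyaluronan synthase Has1 and the chemokines Ccl19 and Cxcl10 fell, with log2 fold changes of -3.34 ± 0.58, -3.20 ± 0.35, -3.12 ± 0.50 and -2.18 ± 0.51. Without tumour 3 the call of Cxcl10 was lost. Il6 was not called (-1.60 ± 0.66, adjusted p = 0.224), and 1 well held 88.4% of its member counts. The count of lower genes was 18 without tumour 2 and 8 without tumour 4.

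Complement genes that were called were all lower. Of 11 tested genes, 6 were lower and none was higher, with a median of -1.43. C3, the central complement protein, was at 24.6, 8.58, 2.66 and 4.24 per 10000 against 38.5, 30.8, 31.5 and 40.6, lower in each tumour (-3.01 ± 0.30, adjusted p = 0.000659). Cd55, which shields cells from complement, was at 0.487, 0.653, 0.771 and 0.506 against 6.72, 2.28, 5.51 and 5.82 (-2.81 ± 0.31, adjusted p = 0.00116), and Cfb, C4b, Serping1 and C1ra fell, with log2 fold changes of -2.15 ± 0.27, -1.81 ± 0.41, -1.49 ± 0.20 and -1.43 ± 0.24. Serping1 and C1ra went the other way in tumour 1. The calls of C4b and C1ra were lost without tumour 4, and that of C4b also without tumour 2. The count was 4 without tumour 4, 5 without tumour 2 and 9 without tumour 3.

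Genes of metabolism, stress and arrest were read for the state of the wells. Of 22 tested glycolysis and hypoxia genes 3 were higher and 1 lower: Pkm and Gapdh rose by 1.20 ± 0.18 and 1.08 ± 0.19, the lactate transporter Slc16a3 by 3.35 ± 0.45, and Ndrg1 fell by 1.45 ± 0.28. With totals in place of TMM 6 of these genes were higher. Of 25 immediate early and heat shock genes, which cell dissociation raises, 5 were lower and none higher, with a median of -0.56. Atf3, Klf4, Dnajb1, Dusp1 and Egr1 fell, with log2 fold changes of -2.05 ± 0.28, -1.90 ± 0.43, -1.54 ± 0.24, -0.97 ± 0.24 and -0.82 ± 0.19, and all but Klf4 went the other way in tumour 1. Without tumour 4 the calls of Pkm, Gapdh, Dusp1 and Egr1 were lost, and without tumour 2 those of Dusp1, Egr1 and Ndrg1. The part of these stress genes in the other results was not tested. Among 14 tested arrest genes, the kinase gene Plk2 rose by 1.56 ± 0.30. Its call was lost without tumour 3, and its value was -0.10 without the Cd34, Pi16 and Clec3b lower wells. Igfbp6, which binds insulin-like growth factors, fell by 1.93 ± 0.30, with a list median of -0.08 by TMM and 0.07 by totals. Ifit1 fell by 1.72 ± 0.33 and was the only called gene of 24 in the interferon and antigen presentation list, and its call was lost without tumour 2 or tumour 4. None of 22 ribosomal protein genes was called.

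Cycling wells, with at least 5 per 10000 of 37 cell cycle genes, were 1 of 4, 4 of 30, 1 of 24 and 4 of 22 members and 3 of 14, 8 of 99, 7 of 78 and 5 of 74 lower wells. The share was 3.86 ± 6.69 percentage points above that of the lower wells (SD, n = 4 tumours), higher in 3 of 4 tumours, with an exact two-sided sign-flip permutation p of 0.375, where 0.13 is the smallest p that 4 pairs allow. With every well thinned to 2000 transcripts the difference was 13.1 points. At that depth 1 count of the 37 genes reaches 5 per 10000, and wells with fewer transcripts drop out, so the 2 differences are unlike measures. The comparison was repeated without cycling wells. Of 7145 genes tested, 165 were higher (2.31%) and 244 lower (3.41%), and 148 of the 183 higher genes (80.9%) and 236 of the 290 lower genes (81.4%) were called again. Of the thin filament genes 11 were higher, of the adhesion genes 15 were higher and 1 lower, and of the complement genes 6 were lower. Tnc had a log2 fold change of 1.83 (adjusted p = 0.00329) and Spp1 of 3.54 (adjusted p = 0.0286) without cycling wells.

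The members were not of 1 kind. In tumours 2 to 4, 22 of 76 members (28.9%, exact 95% Clopper-Pearson interval 19.1 to 40.5%) had at least 5 per 10000 of Adamdec1, a gene of lamina propria fibroblasts, and 11 of 76 (14.5%, 7.45 to 24.4%) had at least 5 of Spp1. The intervals cover counting error only. No member was past both limits, and 39 of 76 had neither of these nor 2 per 10000 of Kit plus Ano1, the Cajal cell genes. The lack of wells past both hangs on the limits. In tumour 2, members with Adamdec1 at 21.4 and 35.8 had Spp1 at 4.27 and 3.58. Their totals were 2340 and 2797 transcripts, where 1 more count of Spp1 would pass the limit. The Adamdec1 wells were 6, 9 and 7 in tumours 2 to 4, and 8 of the 11 Spp1 wells were from tumour 2.

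Both kinds had similar Acta2, at medians of 26.2 per 10000 in the Adamdec1 wells and 23.3 in the Spp1 wells, but Tagln was at 3.74 and 7.52 and Myl9 at 4.51 and 1.63. These medians pool tumours 2 to 4, and tumour 2 gave 8 of the 11 Spp1 wells but 6 of the 22 Adamdec1 wells. Over all members of tumours 2 to 4, median Tagln was 6.20, 1.72 and 5.53, and median Myl9 was 1.36, 4.16 and 3.004. The part of the tumour in these and the following medians was not tested. The Adamdec1 wells also carried Bmp4 (median 17.2) and the telocyte genes Foxl1, Bmp5, Bmp7 and Sox6 (median sum 8.51), and both were at a median of 0 in the Spp1 wells. The Spp1 wells carried Tnc (median 14.7 against 2.47) and Lrrc15 plus Col7a1 (median sum 6.53 against 0). The limits of 5 and 2 per 10000 were chosen with the values known, so the kinds describe the members and are not tested groups.

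**Figure D4:**
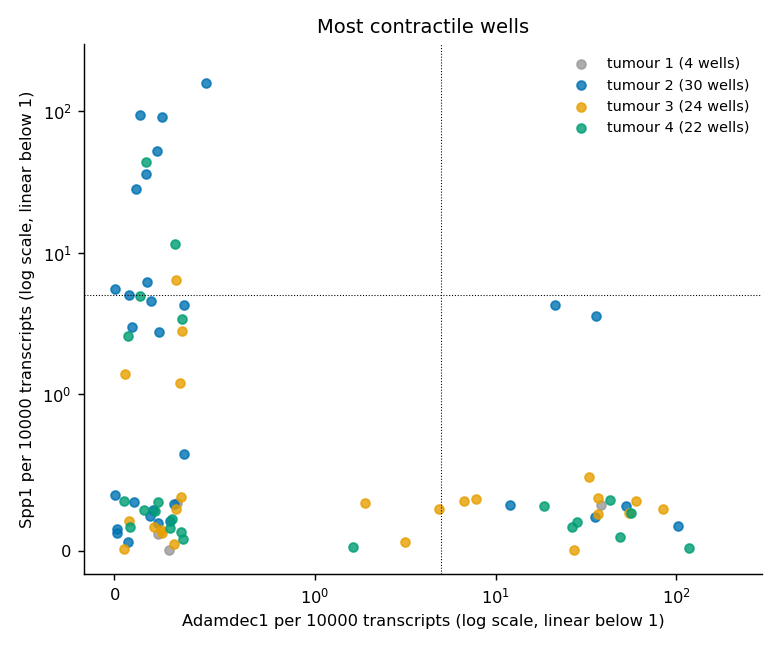
Adamdec1 against Spp1 per 10000 transcripts in each of the 80 most contractile wells, coloured by tumour, on log axes that are linear near 0, with wells at 0 spread out a little to be visible and dotted lines at 5. No well lies beyond both lines, which were set with the values known.

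With every well thinned to 2000 transcripts, which left out 7 members and 10 lower wells, Adamdec1 was found in 24 of 69 members (34.8%) and 34 of 241 lower wells (14.1%). Spp1 was found in 18 of 69 (26.1%) and 8 of 241 (3.32%), and the 4 telocyte genes together in 24 of 69 (34.8%) and 17 of 241 (7.05%). Without thinning, the shares past the limits were 28.9%, 14.5% and 34.2% in the members and 9.96%, 1.59% and 9.56% in the lower wells. Bmp4 was found in 46.4% of members and 49.4% of lower wells after thinning, and its fold change was 0.35 ± 0.31 (adjusted p = 0.625).

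Adamdec1 itself was at 33.3, 3.63, 23.3 and 14.98 per 10000 in the members and at 10.6, 0.673, 2.47 and 1.53 in the lower wells (2.87 ± 0.24, adjusted p = 0.000401). It stood higher in the members of tumours 2 to 4. In tumour 1 the member level came from 1 well, with the other 3 at 0, and 1 of 4 members against 6 of 14 lower wells had at least 5 per 10000. Of 7 tested telocyte markers 6 were higher and none lower, and of 3 tested Cajal markers Kit and Ano1 were higher. The telocyte list summed to 20.9, 20.3, 38.0 and 35.6 per 10000 in the members and to 16.2, 9.31, 9.16 and 12.2 in the lower wells, and the Cajal list to 0.825 to 3.08 against 0.0838 to 0.299. Most of each telocyte sum was Postn, whose levels are given above. The telocyte list also summed to 27.5 to 41.8 in the wells left out for Myh11. In those left out for Mmp13 plus Mmp10 it summed to 20.3 to 39.7. Without wells at 2 or more per 10000 of the 4 telocyte genes, 67 genes were higher and 119 lower, of which 55 and 110 were among the 183 and 290, with 5 thin filament and 8 adhesion genes among the higher ones and list medians of 0.61 and 0.63. Adamdec1 and Mylk were no longer called there, while Tnc, Tpm1, Cald1 and Actn1 were. Without the Kit plus Ano1 wells 153 genes were higher and 232 lower, and without the Spp1 wells 213 and 281.

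Outside the tested gene lists, the 12 genes with the largest positive change were Glp2r, Ano1, Sox6, Emid1, Eva1a, Kit, Alcam, Fry, Bean1, Rerg, Kcnmb1 and Unc5b. Kit and Ano1 are in the Cajal, Sox6 in the telocyte and Kcnmb1 in the smooth muscle marker list. Glp2r, the receptor for a gut hormone, had 39 counts in 11 members against 1 count in the lower wells, a ratio of 126 with an exact 95% counting interval of 21.3 to 5103. Emid1, an extracellular protein, was at 1.30, 0.230, 1.74 and 2.09 per 10000 against 0.168, 0.0224, 0.0842 and 0.0440 (4.50 ± 0.39, adjusted p = 0.000448). Kit and Ano1, the receptor and the chloride channel of Cajal cells, rose by 3.55 ± 0.40 and 5.19 ± 0.63, but 3 wells held 98.4% and 75.5% of their member counts. Kcnmb1, a potassium channel subunit of smooth muscle, and Unc5b, a netrin receptor, rose by 3.21 ± 0.54 and 3.21 ± 0.43, the Kcnmb1 call being lost without tumour 4.

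The 12 with the largest negative change were Myoc, Adamts19, Coch, Scara5, Angptl7, Saa1, Ptpn5, Cyp4b1, Serpina3m, Lbp, Akr1c14 and Ifi205. Myoc had no count in the 76 members and 165 counts in 33 lower wells, at least 17.0-fold lower against a floor of 3 counts over all member wells. Adamts19 had none against 69, at least 7.12-fold lower by the same floor. Scara5, a ferritin receptor, was at 0.649, 0.0575, 0.116 and 0 per 10000 against 6.04, 1.44, 2.97 and 3.51, lower in each tumour (-5.53 ± 0.47, adjusted p = 0.000401). Lbp, which binds bacterial lipopolysaccharide, was at 0.487, 0.710, 0.193 and 0.221 against 0.586, 5.61, 2.59 and 5.77 (-3.80 ± 0.32, adjusted p = 0.000401).

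Levels over the whole ranking were read in 5 ranges of rank, 0 to 25, 25 to 50, 50 to 75, 75 to 85 and 85 to 100%, without a test, as means of tumours 2 to 4. Tpm1 was at 2.60 ± 0.543, 2.49 ± 0.111, 3.62 ± 0.239, 4.52 ± 1.96 and 10.7 ± 1.41 per 10000 (SD, n = 3). The first 2 ranges did not differ beyond their spread, and the widest step was the last. Cald1 was at 9.69 ± 1.31 and Cnn2 at 6.55 ± 2.19 in the last range, against 5.02 ± 1.34 and 3.21 ± 0.982 in the range before it. Cd34 went the other way, at 8.18 ± 3.20, 6.84 ± 1.40, 4.24 ± 1.65, 3.30 ± 4.35 and 0.526 ± 0.213. Tnc was already at 10.1 ± 10.6 and Spp1 at 6.75 ± 7.60 in the range below the members, so these genes were not limited to the members.

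**Figure D5:**
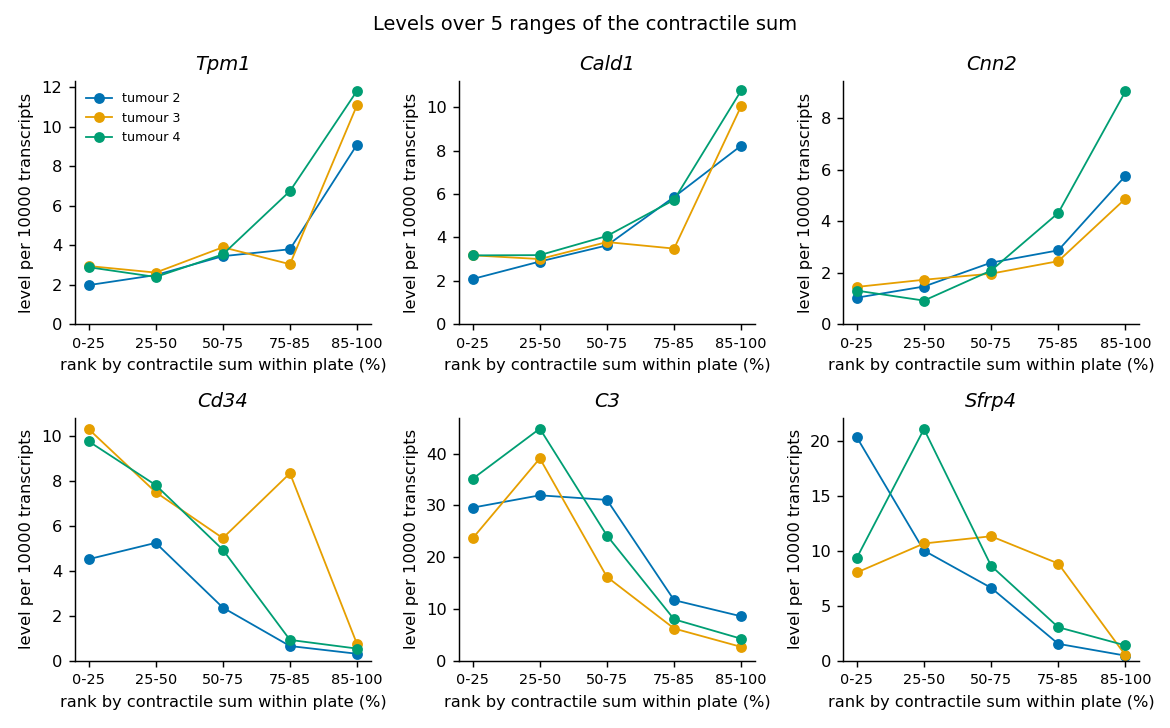
Levels per 10000 transcripts of 6 genes over 5 ranges of rank by contractile sum, from the lowest 25% to the top 15% of the kept wells, with 1 line for each of tumours 2 to 4. Tpm1 is highest in the top 15%, at 9.10 to 11.8, and Cd34 is lowest there, at 0.307 to 0.733.

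Over 20 points, the 5 ranges in 4 tumours, the genes whose log2 level was most like the contractile sum were Cnn2 (Pearson r = 0.86), Myh9 (0.86), Gapdh (0.82), Flna (0.82) and Pkm (0.81). The least alike were Entpd2 (-0.93), Adh1 (-0.89), Rnase4 (-0.88), Carhsp1 (-0.83) and Cd34 (-0.81). The points share plates and depth, so these values are descriptions across ranges with no test.

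The wells that the limits removed show what was kept apart. Wells left out for Myh11 had Acta2 at 149, 135, 48.3 and 143 per 10000 in tumours 1 to 4 and Myh11 at 59.8, 12.3, 14.3 and 68.6, where the members had Myh11 at 1.14, 0.365, 0.270 and 0.411. Tnc stood at 1.59, 3.88, 3.97 and 2.26 in those wells, below the members in tumours 1, 2 and 4 and slightly above them in tumour 3. Lrrc15 was listed at 0 in the Myh11 wells of tumours 1, 2 and 4 and at 0.209 in tumour 3. The 20, 35 and 19 wells left out for Mmp13 plus Mmp10 in tumours 2 to 4 had less Acta2 than the members, at 9.28, 7.96 and 6.82. They carried Tnc at 17.0, 12.1 and 11.8, above the members in tumour 3, and Lrrc15 at 2.64, 2.09 and 2.10, also above them in tumour 3. Col7a1 stood at 16.4, 10.9 and 10.9 there, above the members in each of the 3 tumours, and Spp1 at 2.11, 14.8 and 0.659. Tpm1 was at 9.75, 10.3 and 11.8 in these wells, near the members' 9.10, 11.1 and 11.8. Actg2, at 1.70, 0.660 and 1.03, was below the members only in tumour 3. Cald1 (6.93, 7.21 and 9.70) and Mylk (0.880, 1.07 and 0.453) were below the members in each tumour. Cd34 (0.938, 1.19 and 0.288) and C3 (3.46, 4.30 and 3.88) were below the lower wells there too. Not all of these traits were thus particular to the members. Since the limits used Myh11, Mmp13 and Mmp10, these values are a description with no test.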

How the data were processed

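Single wells of 4 plates were sequenced with SORT-seq, a plate-based method with a CEL-Seq2 library, per the labels' protocols, and BWA and mm10 are named in the submitters' processing notes. The authors deposited 1 table of expected counts per plate: transcript numbers corrected for collisions among 4096 molecular barcodes, as the values themselves show, since inverting that correction gives numbers within 0.00486 of whole. The sources used here name no other filter of the authors. Totals exclude spike-ins. No doublet caller was run.

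Counts were summed per tumour and class, rounded to whole numbers and tested in edgeR 4.0.16 (R 4.3.3, limma 3.58.1) with the quasi-likelihood test, the tumour as a block, TMM scaling, the default filter on low counts and Benjamini-Hochberg adjustment at 0.05. The block pairs the classes because both come from the same plate. The 11 genes used by the limits and the ranking stayed in the totals and were not tested. DESeq2 1.42.0 was an alternative. Other steps used python 3.11.15, numpy 2.4.6, pandas 2.3.3 and scipy 1.17.1. The test was checked on simulated data. Plates held 612734 to 3165550 transcripts, and intervals cover counting error only.

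The members, the gene lists and the rules were chosen with earlier results of these data known. Genes were named by a rule: the marker and ranking genes, up to 8 called genes of a list by size of change with 1 sign in each fitted tumour, preset ligands, receptors and regulators whether called or not, and the 12 largest changes in each direction outside the tested lists. Other called list genes were named to complete a count. Adamdec1, Bmp4, Kit, Ano1, Cnn1, Des and Myh11 were named after their values were seen. Alternatives changed the scaling, tool, filters, limits, class sizes, ranking genes, depth and tumours used.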

Additional observations from a re-analysis of the deposited data

Results flagged for a closer look

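In 42 groups of 4 tumours, 1 value stood far from the other 3 in 4 cases, and chance gives about 1 such group in 20. Spp1 in the members was at 23.1 per 10000 in tumour 2, with the other tumours at 0, 0.424 and 2.25. The fibroblast marker list in the members summed to 659 per 10000 in tumour 1 against 537, 537 and 554. The share of cycling lower wells was 21.4% in tumour 1 against 6.76, 8.08 and 8.97%. The endothelial list in the lower wells summed to 0.168 per 10000 in tumour 1 against 0.411, 0.413 and 0.449. The cause of these differences was not tested.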

How the results depend on the processing

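The tumour block is part of the comparison of members with lower wells, and without it (no replicate block) 139 genes were higher and 214 lower in place of 183 and 290, and without cycling wells 113 and 152 in place of 165 and 244. In that unpaired fit the held-out values were 2.97 for Myl9, 2.80 for Tpm2, 2.98 for Acta2 and 4.05 for Tagln on the log2 scale. These 4 held-out genes kept their direction and their call in every alternative run for them, with ranges of 2.80 to 3.21, 2.61 to 2.99, 2.89 to 3.84 and 3.73 to 4.75 when 1 tumour was left out.

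Of the counts, 183 higher and 290 lower became 109 and 165 with DESeq2 and 103 and 171 with tumour 1 included. They became 347 and 577 with no filter on low counts and 75 and 125 with the smooth muscle list held under 5 per 10000. Leaving out 1 tumour gave 82 to 172 higher and 121 to 251 lower. With totals in place of TMM 275 were higher, against all other kept wells 121 were higher, and with the top 25% as members 180 were lower. Among alternatives chosen after seeing the data, the counts were 67 and 119 without wells at 2 or more per 10000 of the telocyte genes, 4 and 16 without the Cd34, Pi16 and Clec3b wells in the lower 50%, and 182 lower with wells thinned to at most 5000 transcripts. Without cycling wells, 165 and 244 became 99 and 133 with DESeq2, 88 and 130 with tumour 1, 60 and 89 at a cycling limit of 2 per 10000, which left 10 or more members only in tumours 2 and 3, so that 34 members and 111 lower wells were fitted, and 72 to 135 and 95 to 193 without 1 tumour. The difference in cycling share, 3.86 points, was 1.34 to 6.75 without 1 tumour. It was 13.1 after thinning to 2000 transcripts, where 1 count reaches the limit. The cause of the other shifts was not tested.

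Over all recomputed values, 4266 kept their direction and side of the threshold, 686 lost a call, 15 gained one and 21 changed sign. Without the telocyte gene wells Bmp2 had -1.94 and Mkl2 0.16. Without the Cd34, Pi16 and Clec3b wells Cd34 had 0.074, Emilin1 -0.23, Fstl1 0.13, Id1 -0.13, Plk2 -0.10 and Tgfbr2 0.21. The rest were genes not called in the comparison. Mkl1 had -0.10 against all other wells, -0.0076 ranked on Acta2 plus Tagln, -0.0077 without the filter and -0.20 to 0.23 without 1 tumour. At a cycling limit of 2, in tumours 2 and 3 only, Mkl1 had -0.10, Tgfb2 -0.51 and Tgfbr1 -0.037. Without 1 tumour Tgfb2 had -0.042 to 1.13 and Tgfbr1 -0.078 to 0.52. Without cycling wells and 1 tumour Mkl1 had -0.022 to 0.28, Srf -0.15 to 0.46, Tgfb2 -0.12 to 1.16 and Tgfbr1 -0.087 to 0.58. Of 126 named called genes, 24, 20 and 41 lost their call without tumour 2, 3 and 4, and 26 with DESeq2. Depth limits the members most in tumour 1, whose 4 wells had a median of 2751 transcripts.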
